A study of Mus musculus with 12 samples.

Results

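The genes described here serve glycolysis and the entry of pyruvate into mitochondria. They also cover the citric acid cycle with respiratory complex II and the malate-aspartate shuttle. There were 40, listed with earlier results of these data known. Of the 40 genes, 14 belonged to glycolysis, 8 to pyruvate entry, 14 to the citric acid cycle with complex II and 4 to the malate-aspartate enzymes. They stood among 54193 genes to which the deposited transcripts could be assigned, and all 40 were among the 18017 genes with enough counts to be tested. RNA came from laser-microdissected substantia nigra of 12 mice at 1 week of age, all described as male, 3 in each of 4 groups. OF1-En1+/- mice carried a single working copy of Engrailed 1 (En1), a homeobox gene of midbrain dopaminergic neurons, on the outbred SwissOF1 (OF1) background, and OF1 WT mice were their wild-type counterparts. C57-En1+/- mice carried the same hemizygosity on the inbred C57Bl/6j (C57) background, and C57 WT mice were their wild-type counterparts. According to the methods of the study, the other copy of En1 was disrupted by a LacZ insertion and tissue was cut from sections stained with cresyl violet, a stain for cell bodies that does not mark dopaminergic neurons. The comparisons asked whether these metabolic genes differed with En1 hemizygosity within each background, and between the backgrounds within each genotype.

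Glycolysis splits glucose into pyruvate in the cytosol, and lactate dehydrogenase exchanges pyruvate with lactate. The mitochondrial pyruvate carrier and the pyruvate dehydrogenase complex bring pyruvate into mitochondria as acetyl-CoA, and the pyruvate dehydrogenase kinases switch that complex off by phosphorylation. The citric acid cycle oxidizes acetyl-CoA to produce NADH and, at complex II, to feed electrons directly into the respiratory chain, while the malate-aspartate shuttle carries the reducing power of cytosolic NADH into mitochondria. Neurons depend heavily on these routes for ATP, and dopaminergic neurons of the substantia nigra are known for their high energy demand.

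Total estimated counts ranged from 13538864 to 37754338 per library in the other groups and from 61433970 to 168741283 in C57 WT mice, so depth and the C57 WT group cannot be told apart. Summed levels of 10 dopaminergic markers were 38.0 to 244 TPM (a transcript level scaled for length and library total) in 10 libraries, against 6992 TPM in mouse SW22 (OF1-En1+/-) and 10888 TPM in mouse C572S (C57 WT), and the labelled tissue was thus nearly without its defining markers in the 10. En1 itself had 691 normalized counts in SW22 and 1071 in C572S and 0 to 15.2 in the other 10, so it did not check the genotype labels. Mouse C572 (C57-En1+/-), labelled male, had 1330.5 normalized counts of Xist, against at most 34.9 in any other library. It had 0 of the Y-linked genes Ddx3y and Eif2s3y, 2.09 of Uty and 58.5 of Kdm5d, the lowest counts of all libraries. Its stated sex is therefore in doubt. The 4 X-linked genes of the list are Pgk1, Pdha1, Pdk3 and Idh3g. For the genes of smallest p, estimates without SW22 and C572S together, or without C572, are also given where they moved by more than 0.1 on the log2 scale. In bulk tissue, fewer cells of a type and less RNA per cell cannot be told apart. The labels give each library as a separate mouse.

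The level of the 40 genes spanned more than 3 orders of magnitude in TPM, which is scaled for transcript length and allows genes to be compared. Together they took 1.37% (SW7, OF1 WT) to 2.11% (SW31, OF1 WT) of all transcripts, and 34 of the 40 had a median of at least 100 TPM. In glycolysis, Gapdh, which oxidizes glyceraldehyde 3-phosphate, was the most abundant with 2242 to 3564 TPM, followed by the aldolase gene Aldoa with 1431 to 2125 TPM. Pgam1, encoding phosphoglycerate mutase, had a median of 918 TPM and the triosephosphate isomerase gene Tpi1 a median of 879 TPM. Of the hexokinases, which phosphorylate glucose on entry, Hk1, the form typical of brain, had 88.2 to 286 TPM, while the insulin-responsive hexokinase Hk2 stayed between 0.00434 and 2.93 TPM. Hk1 accounted for at least 97.5% of the summed level of both genes in every library. Of the 3 phosphofructokinase genes, whose products catalyse the committed step, Pfkp contributed a median of 53.0%, Pfkm 32.0% and Pfkl 16.7% of their sum. Eno2, the neuronal enolase, contributed 20.5% to 35.7% of the sum of Eno2, Eno1 and Eno1b, and Ldha 19.1% to 42.8% of the sum of Ldha and Ldhb.

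**Figure D1:**
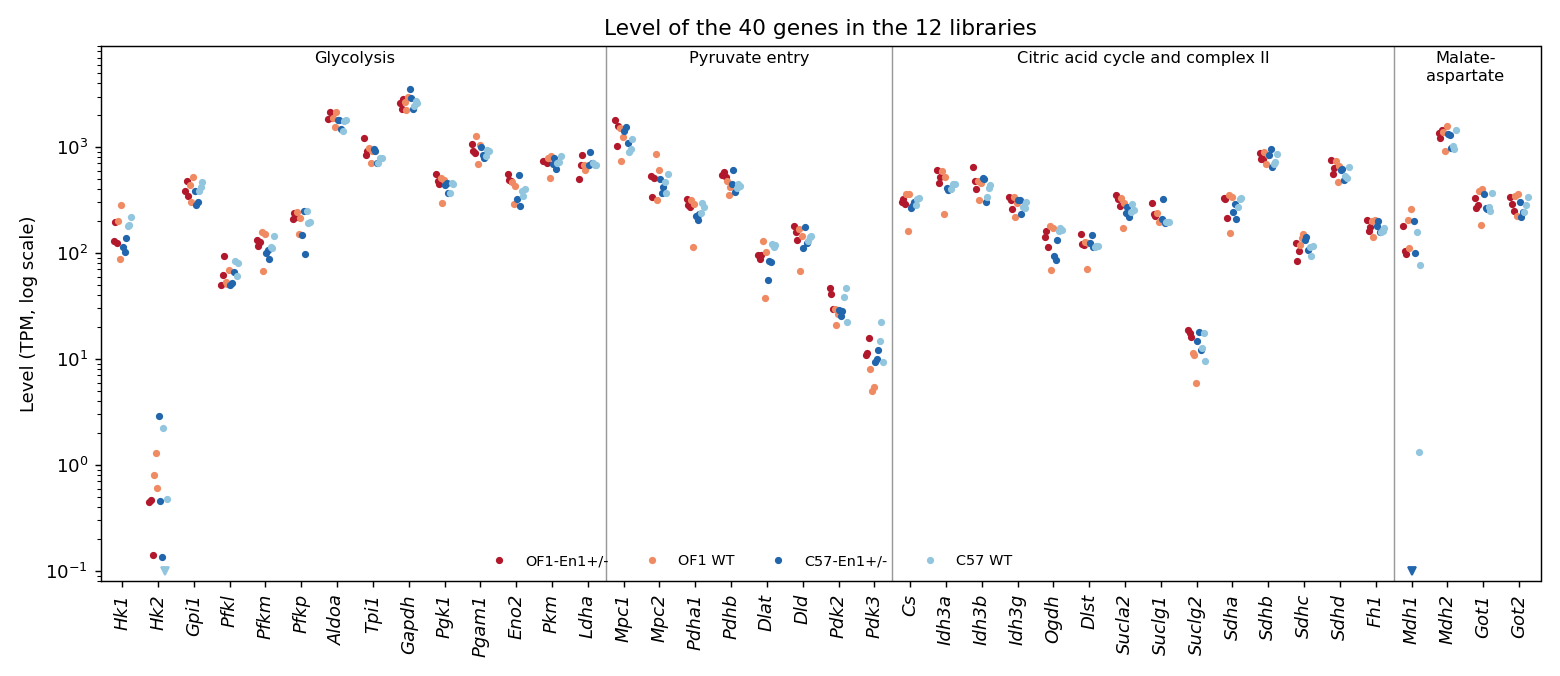
Level of each of the 40 genes in TPM (vertical axis, log scale) in the 12 libraries, coloured by group, with the genes ordered by step along the horizontal axis; triangles mark values under 0.1 TPM. Gapdh, Aldoa, Mdh2 and Mpc1 stand highest, and Hk2, Pdk3, Suclg2 and Pdk2 lowest.

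At the entry of pyruvate, transcripts of the carrier subunit Mpc1 had a median of 1215 TPM, and the ratio of Mpc1 to its partner Mpc2 had a median of 2.59 over the 12 libraries. That ratio averaged 3.18 ± 0.21 in OF1-En1+/- and 2.04 ± 0.30 in OF1 WT mice, and 3.20 ± 0.82 in C57-En1+/- and 2.22 ± 0.34 in C57 WT mice (SD, n = 3 each); it was read after its values were seen and was not tested. Among subunits of the pyruvate dehydrogenase complex, Pdhb had a median of 447 TPM and Pdha1, which carries the phosphorylated sites, 272 TPM, against 96.5 TPM for the acetyltransferase gene Dlat and 143 TPM for Dld. The kinase genes were low, with medians of 29.1 TPM for Pdk2 and 10.5 TPM for Pdk3. In the cycle, the subunits of NAD-dependent isocitrate dehydrogenase were near each other, with medians of 447 TPM for Idh3a, 449 TPM for Idh3b and 301 TPM for Idh3g. Complex II was unequal: Sdhb and Sdhd had medians of 808 and 615 TPM, against 307 TPM for Sdha and 118 TPM for Sdhc. Succinate-CoA ligase uses a different beta subunit for ATP (Sucla2) and for GTP (Suclg2), and Sucla2 held 93.9% to 98.0% of the sum of both. Mdh2, the mitochondrial malate dehydrogenase, had a median of 1316 TPM, the highest of the shuttle enzymes, with 278 TPM for Got1 and 287 TPM for Got2, the cytosolic and mitochondrial aspartate aminotransferases. Mdh1, the cytosolic malate dehydrogenase, was erratic, with 0 TPM in C5713 (C57-En1+/-) and the next lowest level in C572S (C57 WT), against 76.8 to 259 TPM in the other 10. Most of its level was assigned to a shorter transcript with 6 exons, and a further annotated transcript with the exon structure of the full-length one was not analysed here, so the Mdh1 values are incomplete.

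Pkm, the pyruvate kinase gene that closes glycolysis, makes alternative transcripts that differ in a single pair of mutually exclusive coding exons, the exon of the M1 form typical of adult brain and muscle and the exon of the M2 form typical of embryonic and dividing cells. Both were expressed at once in these mice, so both exons are shown. Each is 167 bases long, they lie on the plus strand at chr9:59582312-59582478 (M1, in transcript Pkm-202) and chr9:59582851-59583017 (M2, in transcript Pkm-201) of GRCm39, and they share 103 of the 167 bases. Capitals mark the bases at which they differ.
M1 exon: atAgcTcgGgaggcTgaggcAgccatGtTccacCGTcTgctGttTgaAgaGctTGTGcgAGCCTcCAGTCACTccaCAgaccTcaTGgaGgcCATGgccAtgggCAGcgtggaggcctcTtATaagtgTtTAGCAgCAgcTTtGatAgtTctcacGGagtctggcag
M2 exon: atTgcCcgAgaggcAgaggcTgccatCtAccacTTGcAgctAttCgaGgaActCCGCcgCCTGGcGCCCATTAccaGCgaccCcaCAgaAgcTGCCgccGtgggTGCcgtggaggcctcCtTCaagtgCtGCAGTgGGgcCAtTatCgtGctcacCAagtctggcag
The transcript with the M1 exon held 58.8% to 67.1% of the Pkm level and the one with the M2 exon 32.4% to 41.1%. The M1 share averaged 63.0% ± 1.11 in OF1-En1+/- and 62.9% ± 3.69 in OF1 WT mice, and 61.5% ± 2.03 in C57-En1+/- and 65.5% ± 2.13 in C57 WT mice (SD, n = 3 each). The shares of the 4 groups were not tested, since an exact permutation test of 3 against 3 mice cannot go below a 2-sided p of 0.10. Among the transcripts of Hk1, Hk1-205 held 30.2% in SW7 (OF1 WT) and 45.5% to 67.1% in the other 11 libraries.

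Single libraries stood high or low for many of the 40 genes at once. Counts scaled for depth and composition (normalized counts) were used for all comparisons between mice. Of the 40 genes, 16 had their highest normalized count in C572 (C57-En1+/-), while it held the highest count for 13.9% of all genes tested and 23.9% of those with a median of at least 50 TPM. A further 10 were highest in SWG (OF1 WT), against 7.10% of all genes tested and 8.00% of those of at least 50 TPM. In SW21 (OF1-En1+/-) 6 were highest, against 6.64% and 5.17%. The lowest count fell in C5710 (C57 WT) for 15 genes (37.5%, against 5.40% of all genes tested and 17.7% of those of at least 50 TPM) and in SW7 (OF1 WT) for 13 (32.5%, against 14.3% and 13.6%). The median log2 deviation of the 40 genes was 0.26 in C572, -0.39 in C5710 and -0.29 in SW7. Summed levels of 8 neuronal markers were lowest in SW7 (3748 TPM) and highest in C572 (9499 TPM), with 5084 to 6399.5 TPM in the other 10. Oligodendrocyte markers were also highest in C572 (3233 TPM). Red blood cell markers were highest in C575 (C57-En1+/-, 5553 TPM), followed by SW7 (5454 TPM). In C5710 red blood cell markers had 1771 TPM and astrocyte markers 574 TPM, the highest astrocyte sum of the 12 libraries. The part of cell composition in these deviations was not tested. Within groups, the SD of log2 levels had a median of 0.31 over the 40 genes, against 0.51 over all genes tested and 0.28 over genes of at least 50 TPM. It was smallest for Aldoa (0.24) and Pkm (0.25), and largest for Mdh1 (3.01) and Hk2 (2.05).

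**Figure D2:**
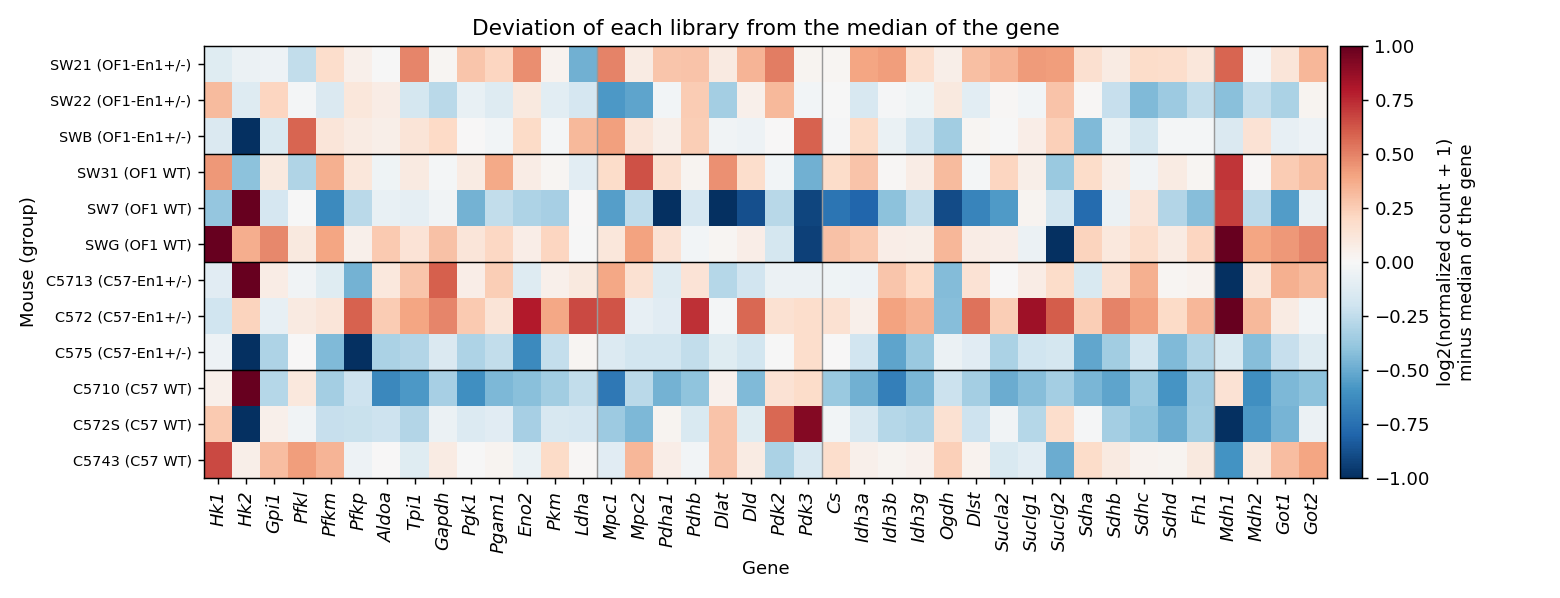
Deviation of each mouse (rows, by group) from the median of each gene (columns, by step), in log2(normalized count + 1), with colours saturating at 1 unit. Most genes are red in C572 and blue in SW7 and C5710, with exceptions such as Hk1 in C572 and Hk2 in C5710.

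None of the 40 genes passed the threshold of adjusted p (edgeR quasi-likelihood test, Benjamini-Hochberg adjustment over 18017 genes, 0.05) in any comparison. For En1+/- against WT mice, the share of all genes tested that passed was 0.00% in OF1, 0.00% in C57 and 0.00% over both strains. Between strains it was 1.03% for OF1 WT against C57 WT, 0.927% for OF1-En1+/- against C57-En1+/- and 2.00% over both genotypes. It was 0.00% for the difference of the genotype effects. Without adjustment, at a p under 0.05, counts of the 40 genes were 2 in OF1 (9.18% of all genes), 2 in C57 (8.57%) and 2 over both strains (11.4%) for genotype. They were 1 between WT mice (8.63%), 0 between En1+/- mice (8.00%) and 1 over both genotypes (8.68%) for strain, and 1 for the difference of genotype effects (7.07%). By DESeq2, 1 of the 40, Pdk3, passed between WT mice (2.53% of all genes). By the same tool 0 passed by genotype in OF1 (1.15% of all genes), in C57 (0.411%) and over both strains (1.33%), and 0 between En1+/- mice (2.46%), over both genotypes (3.62%) and for the difference of genotype effects (0.233%), and by limma voom with quality weights 0 passed in all 7.

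The precision of these libraries bounded most of the genes. The 95% interval of the log2 fold change lay within 1 log2 unit of 0 for 35 of the 40 when OF1-En1+/- were set against OF1 WT mice (33.8% of all genes tested) and for 32 between C57-En1+/- and C57 WT mice (32.3%). The same held for 36 between OF1 WT and C57 WT mice (35.1%) and for 38 between OF1-En1+/- and C57-En1+/- mice (35.9%). Over both strains, the interval of En1+/- against WT was that narrow for 37 genes (50.4%), and over both genotypes that of OF1 against C57 for 38 (52.9%). These shares, and the medians over all genes given below, were not matched for expression level. Of the 18017 genes tested, 2899 had a median of at least 50 TPM, while 34 of the 40 had at least 100 TPM. The median SD within groups was 0.31 for the 40 genes and 0.28 for genes of at least 50 TPM.

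**Figure D3:**
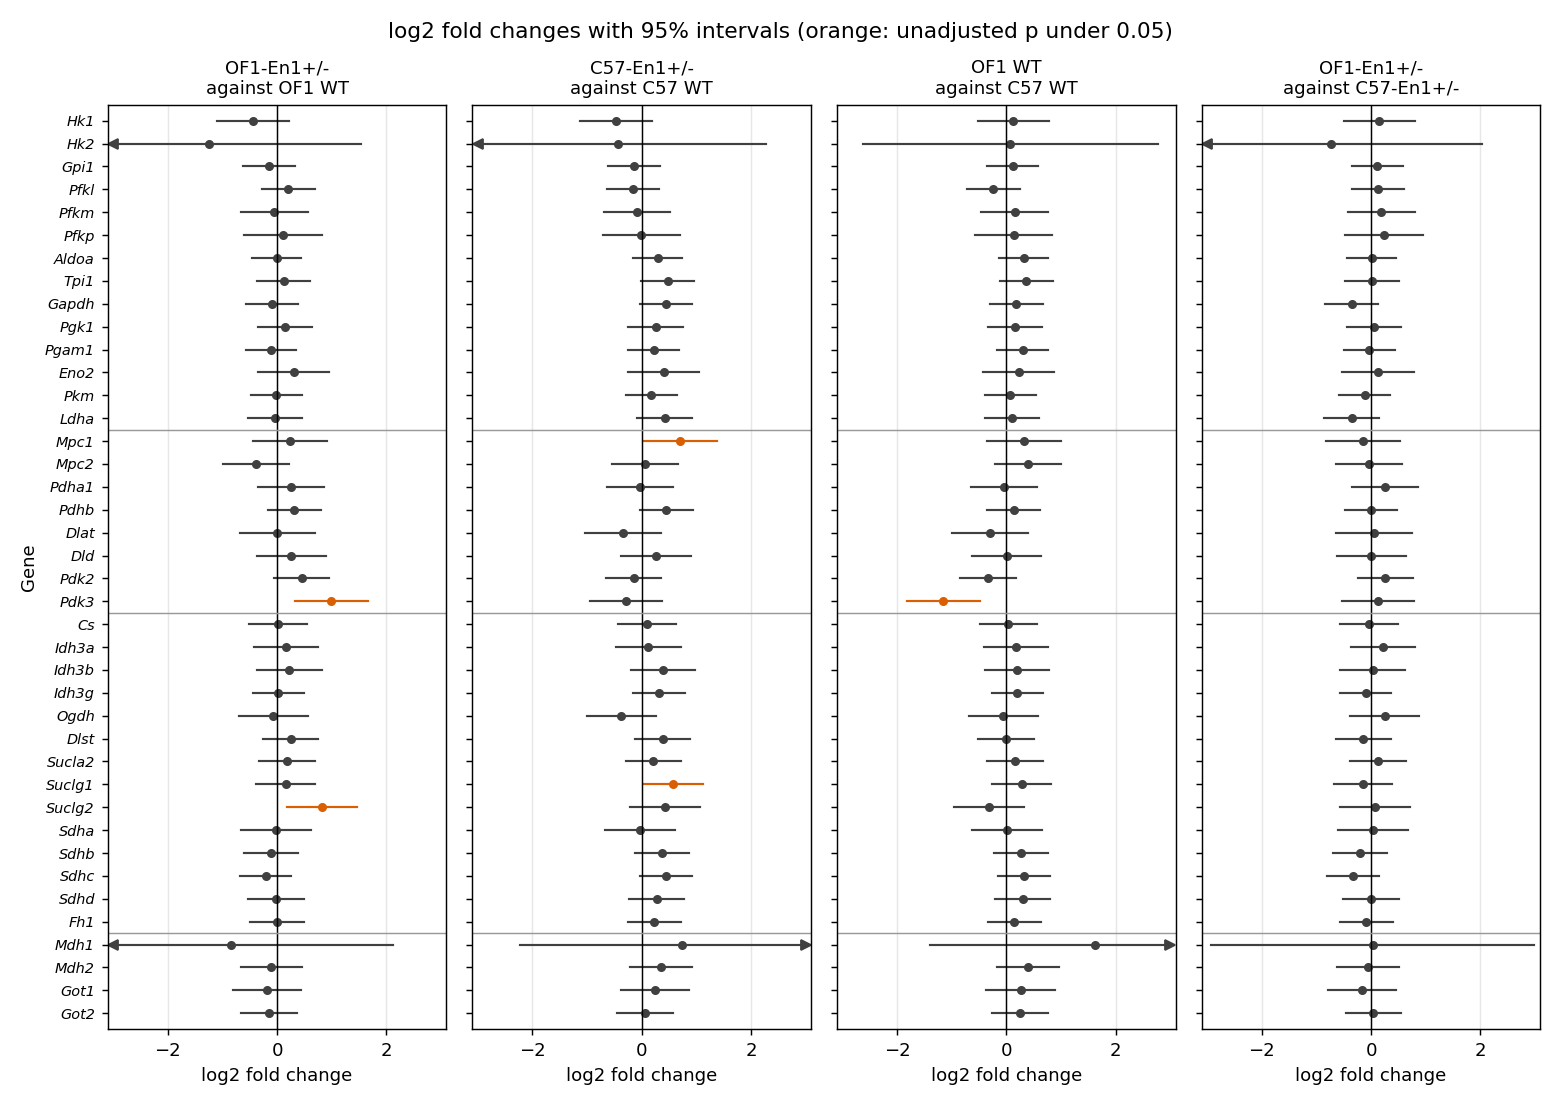
log2 fold change (horizontal axis) of each of the 40 genes with its 95% interval in the 4 comparisons between pairs of groups, 3 mice each; orange marks an unadjusted p under 0.05 and arrowheads mark intervals that run beyond the axis. Most intervals cross 0, those of Mdh1 and Hk2 are the widest, and Pdk3 is orange on the higher side in OF1-En1+/- against OF1 WT and on the lower side in OF1 WT against C57 WT.

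Between OF1-En1+/- and OF1 WT mice, the genes of pyruvate entry had the highest estimates of the 4 steps, with a median log2 fold change of 0.26 and 7 of 8 above 0, against -0.02 over all genes tested. This rested on SW7 (OF1 WT), the lowest mouse for that step: without it the median was 0.03, with 5 of 8 above 0. Glycolysis had a median of -0.02, the citric acid cycle 0.02 and the malate-aspartate enzymes -0.16, and the 40 genes together -0.00, with 20 above 0 (48.6% of all genes tested). In 5 genes every OF1-En1+/- mouse was above every OF1 WT mouse and in 1 every one was below (7.68% and 8.04% of all genes tested), a share of 15.0% of the list. Pdk3, a kinase that inhibits pyruvate dehydrogenase, had 533, 516 and 791 normalized counts in OF1-En1+/- mice, against 375, 277 and 274 in OF1 WT mice. The groups did not overlap, and the log2 fold change was 0.99 ± 0.31 (SE), with an adjusted p of 0.453 by edgeR and an unadjusted p of 0.00744. Without SW22 and C572S it was 1.10 with an adjusted p of 0.376, and by DESeq2 without these libraries 1.12 with an adjusted p of 0.0369, a setting chosen after seeing the data. Suclg2, the GTP-forming beta subunit, had 1172, 1072 and 1037 normalized counts in OF1-En1+/- mice, against 679.6, 770.5 and 402 in OF1 WT mice. All values were higher in the hemizygous mice, by 0.83 ± 0.30 on the log2 scale (edgeR, adjusted p = 0.476). Pdk2, the kinase gene that held a median of 61.2% of the summed level of Pdk1 to Pdk4, had 1933, 1702 and 1362 normalized counts in OF1-En1+/- mice, against 1333, 1118 and 1200.0 in OF1 WT mice, a log2 fold change of 0.45 ± 0.23 (edgeR, adjusted p = 0.582). Pdhb and Eno2 did not overlap either, at 0.32 ± 0.22 and 0.30 ± 0.30, and Mdh1, whose values are incomplete, was lower in each OF1-En1+/- mouse. Other lists moved with the same contrast. Sums of 8 oligodendrocyte markers, all tested, were 1149 to 2259.9 TPM in OF1-En1+/- and 377 to 836 TPM in OF1 WT mice. Sums of 8 subthalamic and posterior hypothalamic markers, 4 of which were at 0 in some library, were 37.8 to 125 TPM in OF1-En1+/- and 387 to 1608 TPM in OF1 WT mice. Sums also did not overlap for endothelial cells (124 to 178 TPM in OF1-En1+/-, 51.3 to 109.9 TPM in OF1 WT), proliferating cells (42.7 to 64.9 TPM, against 11.3 to 27.9 TPM) and oligodendrocyte precursors (125 to 150.2 TPM, against 80.4 to 119.8 TPM). The part of these lists in the values of Pdk3, Suclg2 and Pdk2 was not tested.

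Between C57-En1+/- and C57 WT mice, the estimates leaned upward, with a median of 0.24 over the 40 genes and 28 above 0, against -0.05 over all genes tested, of which 46.2% were above 0. The median was 0.20 in glycolysis, 0.01 in pyruvate entry, 0.30 in the citric acid cycle and 0.30 in the malate-aspartate enzymes. The lean rested in part on single mice: it was 0.10 without C572, 0.14 without C5710 and 0.38 without C575 or C5743. Genes with a median of at least 50 TPM had median log2 deviations of 0.02, 0.07 and -0.02 in C57-En1+/- mice. They had -0.17, -0.04 and 0.06 in C57 WT mice, and the part of expression level in the lean was not tested. Groups did not overlap for 1 gene that was higher and 2 that were lower in C57-En1+/- mice (6.20% and 8.08% of all genes tested). Suclg1, the alpha subunit shared by both succinate-CoA ligases, had 7499.7, 12829 and 6223 normalized counts in C57-En1+/- mice, against 5320.4, 5841 and 6609.8 in C57 WT mice. The highest value was that of C572 and the groups overlapped; the log2 fold change was 0.58 ± 0.25 (edgeR, adjusted p = 0.568), and 0.23 without C572. Mpc1 had 24968, 29427 and 17377 normalized counts in C57-En1+/- mice, against 11628, 14821 and 17603 in C57 WT mice. It differed by 0.70 ± 0.31 on the log2 scale (edgeR, adjusted p = 0.570), with overlap by 1 mouse, and by 0.55 without C572. Tpi1 had 35882, 39028 and 24276 normalized counts in C57-En1+/- mice, against 19918, 24218 and 27300.5 in C57 WT mice, a log2 fold change of 0.47 ± 0.23 (edgeR, adjusted p = 0.595), and 0.36 without C572. The genes without overlap were Ldha, at 0.42 ± 0.23, and, lower in C57-En1+/- mice, Hk1, at -0.46 ± 0.30, and Dlat, at -0.34 ± 0.32. Sums of neuronal markers were 5301 to 9499 TPM in C57-En1+/- and 5213 to 6197 TPM in C57 WT mice, the highest being that of C572. Sums of 5 red blood cell markers did not overlap, with 2315 to 5553 TPM in C57-En1+/- and 1648 to 1816 TPM in C57 WT mice, and the part of either list was not tested.

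Over both strains, En1+/- mice had a median log2 fold change of 0.13 for the 40 genes, with 30 above 0, against -0.02 over all genes tested, of which 47.9% were above 0. No gene separated all 6 En1+/- from all 6 WT mice (0.771% of all genes did, 0.233% higher and 0.538% lower). Suclg2 had the smallest p, with 0.63 ± 0.21 on the log2 scale, a 95% interval of 0.17 to 1.08 and an adjusted p of 0.359 by edgeR. Its estimate was 0.83 in OF1 and 0.43 in C57 mice, and 0.75 over both strains without SW22 and C572S (edgeR, adjusted p = 0.296), against 0.52 without C572. Gm15163, an annotated processed copy of Suclg2 on the X chromosome, took 37.7 to 165 normalized counts in OF1 and at most 0.9 in C57 mice; with its reads added the estimate was 0.66. Pdhb, the beta subunit of pyruvate dehydrogenase, had 17682, 17374 and 17293 normalized counts in OF1-En1+/- and 14828, 12927 and 14277 in OF1 WT mice. It had 15992, 24119.9 and 12282 in C57-En1+/- and 11032, 13067 and 14261 in C57 WT mice. The 3 OF1-En1+/- values were close together and above all OF1 WT values, while C57-En1+/- mice were spread widely around C57 WT mice; the estimate was 0.38 ± 0.16 (edgeR, adjusted p = 0.398), and 0.24 without C572. Mpc1 followed with 0.47 ± 0.22 (edgeR, adjusted p = 0.447), and 0.61 without SW22 and C572S.

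Between OF1 WT and C57 WT mice, 32 of the 40 estimates were above 0 (45.2% of all genes tested), with a median of 0.15 against -0.05 over all genes. The median was 0.04 without C5710 and 0.30 without SW7 or C5743, the first being the library lowest for 15 of the 40 genes. Genes with a median of at least 50 TPM had median log2 deviations of -0.05, 0.08 and 0.07 in OF1 WT mice. They had -0.17, -0.04 and 0.06 in C57 WT mice, and the part of expression level in the lean was not tested. Against this lean, Pdk3 was lower, though not past the threshold by edgeR, with 375, 277 and 274 normalized counts in OF1 WT mice, against 595, 992 and 469.9 in C57 WT mice. The groups did not overlap and the log2 fold change was -1.15 ± 0.31, with a 95% interval of -1.83 to -0.48 (edgeR, adjusted p = 0.158; DESeq2, -1.10 and adjusted p = 0.0381). C572S had the highest Pdk3 count. Without SW22 and C572S, DESeq2 gave -0.74 with an adjusted p of 0.504 and edgeR -0.79 with 0.720, and without C572S alone edgeR gave -0.78 with 0.672. Tpi1, with 31654, 27809.5 and 32689 normalized counts in OF1 WT mice, was above all C57 WT mice, by 0.37 ± 0.23 (edgeR, adjusted p = 0.715). Mdh2 had 35210.1, 29051 and 45889 normalized counts in OF1 WT mice, against 22768, 23433 and 37283 in C57 WT mice, with overlap and an estimate of 0.40 ± 0.26 (edgeR, adjusted p = 0.744), and 0.29 without SW22 and C572S. Groups did not overlap for 3 genes that were higher and 1 that was lower in OF1 WT mice (6.21% and 8.57% of all genes tested). Sums of astrocyte markers were 329 to 348 TPM in OF1 WT and 366 to 574 TPM in C57 WT mice, without overlap. Sums also did not overlap for proliferating cells (11.3 to 27.9 TPM, against 41.01 to 61.01 TPM). The same held for dopaminergic markers (41.2 to 119 TPM, against 126 to 10888 TPM, the highest in C572S). Sums of the other lists overlapped. The part of these lists in the values of Pdk3 was not tested.

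Between OF1-En1+/- and C57-En1+/- mice, the median log2 fold change was 0.01, against -0.02 over all genes tested, and 22 of the 40 estimates were above 0 (48.3% of all genes). Pdk3 had 533, 516 and 791 normalized counts in OF1-En1+/- mice, against 503, 594 and 592 in C57-En1+/- mice, a log2 fold change of 0.13 with a 95% interval of -0.54 to 0.79. The smallest p belonged to Gapdh, with 72752, 59718 and 82238 normalized counts in OF1-En1+/- mice, against 108865, 100882 and 65023 in C57-En1+/- mice. Its estimate was -0.36 ± 0.22 (edgeR, adjusted p = 0.765), -0.24 without SW22 and C572S, and -0.15 once the reads of its annotated copies were added. Ldha, a lactate dehydrogenase subunit gene, had 17112, 21246 and 29887 normalized counts in OF1-En1+/- mice, against 25452, 37701 and 24177 in C57-En1+/- mice. Sdhc had 5779.7, 3739 and 4509 in OF1-En1+/- mice, against 6514, 6738 and 4474 in C57-En1+/- mice. Both overlapped between the groups, with -0.36 ± 0.23 and -0.34 ± 0.22 (edgeR, adjusted p = 0.785 and 0.789). Ldha had -0.14 without C572, and Sdhc -0.20 without SW22 and C572S. Pdha1 alone did not overlap (6.49% of all genes tested were higher and 6.75% lower without overlap), at 0.25 ± 0.28. Sums of oligodendrocyte precursor markers did not overlap, with 125 to 150.2 TPM in OF1-En1+/- and 90.5 to 120.3 TPM in C57-En1+/- mice. Those of the other lists overlapped, and the part of the precursor list was not tested. Over both genotypes, the 40 genes in OF1 against C57 mice had a median of 0.08, against -0.04 over all genes, with 28 of the 40 above 0 (44.0% of all genes). None of the 40 separated all 6 OF1 from all 6 C57 mice (2.39% of all genes did, 1.40% higher and 0.988% lower). Pdk3 had the smallest p there, with -0.51 ± 0.22 (edgeR, adjusted p = 0.496) and -0.28 without SW22 and C572S, then Tpi1 with 0.19 ± 0.16 and Aldoa with 0.16 ± 0.14 (edgeR, adjusted p = 0.926 and 0.942). Normalized counts of Aldoa spanned 55708 to 70301 across OF1 mice, against 37593 to 69988 across C57 mice.

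The genotype effect in OF1 minus that in C57 tested whether hemizygosity differed between backgrounds. The median over the 40 genes was -0.15, with 13 above 0, against 0.04 over all genes tested, of which 52.5% were above 0; it was -0.03 without C5710 and -0.34 without SW7. Pdk3 had the smallest p, with an estimate of 1.28 ± 0.43 and a 95% interval of 0.33 to 2.22 (edgeR, unadjusted p = 0.0122, adjusted p = 0.691). It joined an effect of 0.99 in OF1 with one of -0.28 in C57, and was 1.02 without SW22 and C572S and 0.89 without C572S alone. Sdhc, a membrane anchor subunit of complex II, had -0.66 ± 0.31, from -0.21 in OF1 and 0.45 in C57 (edgeR, adjusted p = 0.707). Pdk2 had 0.60 ± 0.33, from 0.45 in OF1 and -0.15 in C57 (edgeR, adjusted p = 0.731). Without SW22 and C572S these were -0.44 for Sdhc and 0.33 for Pdk2. In the 40 genes, 18 intervals of this difference lay within 1 log2 unit of 0 (15.1% of all genes) and 37 within 1.5 units.

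**Figure D4:**
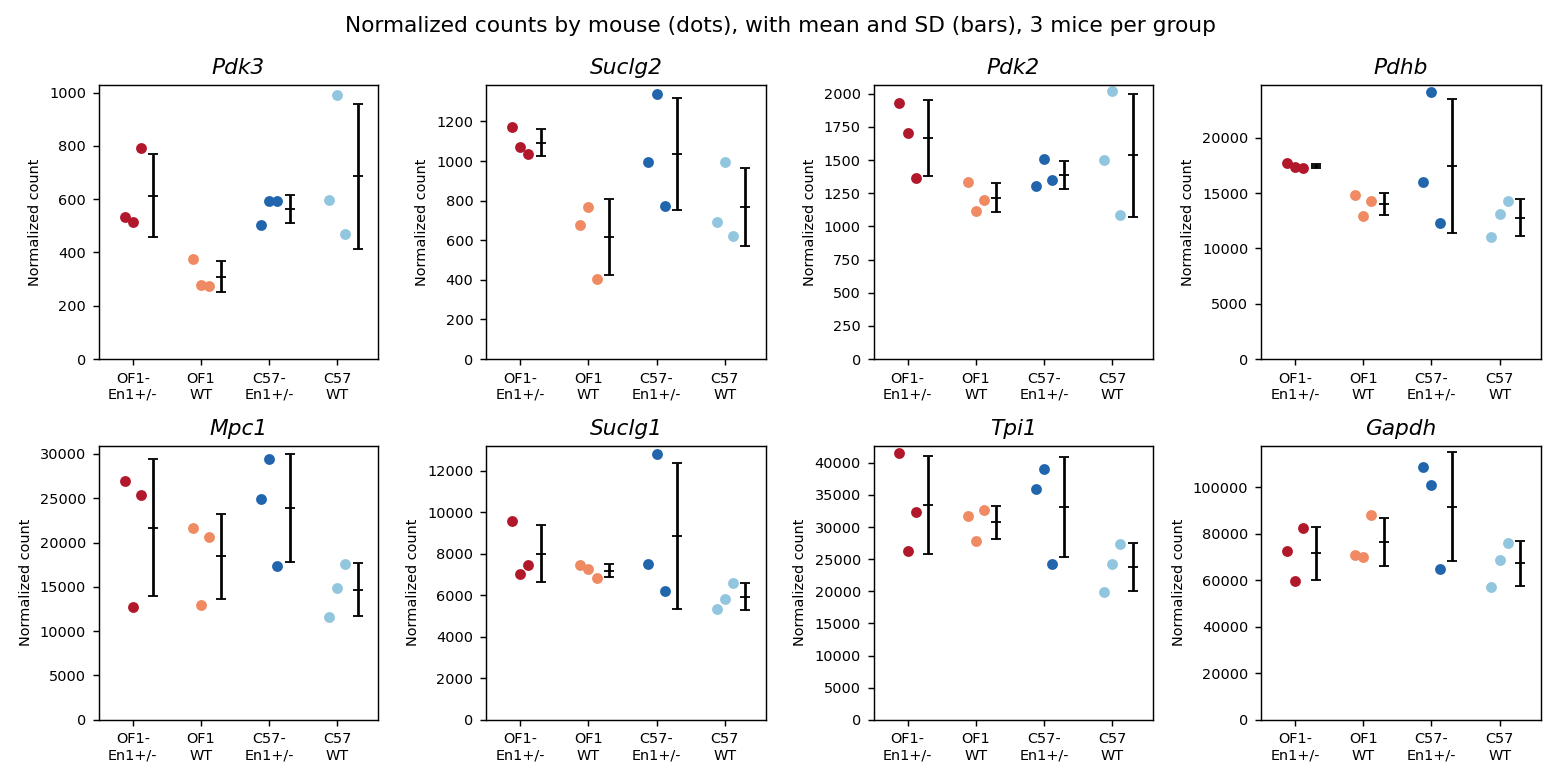
Normalized counts of 8 genes by group, with a dot per mouse, and beside the dots the mean and SD of 3 mice; the vertical axes start at 0. Pdk3 and Suclg2 are lower in OF1 WT mice than in OF1-En1+/- mice without overlap, and a single C57-En1+/- mouse (C572) stands far above the rest of its group for Suclg1 and Pdhb.

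Beyond the 40, 63 further genes of the same routes (isoenzymes, transporters, regulators and assembly factors) were listed, of which 57 were tested. No comparison of genotype had a call by edgeR. At an unadjusted p under 0.05 they numbered 7 in OF1, 5 higher and 2 lower (9.18% of all genes tested), and 5 in C57, 3 higher and 2 lower (8.57%). Over both strains they numbered 10, 5 in each direction (11.4%). Between strains, edgeR called 0 between WT mice (1.03% of all genes), 1 between En1+/- mice (0.927%) and 1 over both genotypes (2.00%). By DESeq2, 4 of the 57 passed between WT mice (2.53% of all genes), 1 between En1+/- mice (2.46%) and 4 over both genotypes (3.62%). For genotype, DESeq2 passed 1 in OF1 (1.15%), 0 in C57 (0.411%) and 0 over both strains (1.33%). It passed 0 for the difference of genotype effects (0.233%). In the same strain comparisons limma voom passed 1, 1 and 2 (234, 137 and 432 of 18017 genes). The smallest p in OF1 belonged to Slc16a1, the monocarboxylate transporter MCT1, with 5141, 7873 and 5065 normalized counts in OF1-En1+/- mice, against 3811, 2102 and 1909 in OF1 WT mice. It differed by 1.21 ± 0.32 without overlap (edgeR, adjusted p = 0.447; DESeq2, adjusted p = 0.0304). Without SW22 and C572S it was 0.97 by edgeR, and DESeq2 gave an adjusted p of 0.184. Endothelial and oligodendrocyte sums separated the same groups (124 to 178 and 1149 to 2259.9 TPM in OF1-En1+/-, 51.3 to 109.9 and 377 to 836 TPM in OF1 WT), and their part was not tested. Over both strains its estimate was 0.74 (edgeR, adjusted p = 0.336). The hexokinase gene Hk3 followed, with 68.7, 72.1 and 177 against 18.9, 4.68 and 37.7 (2.37 ± 0.83, edgeR, adjusted p = 0.476). The Hk3 estimate was 1.79 without SWB, 3.21 without SWG and 2.58 without SW22 and C572S. In C57 mice, the muscle enolase gene Eno3 had 104, 43.9 and 38.6 normalized counts in C57-En1+/- and 195, 689 and 181 in C57 WT mice (-2.52 ± 0.73, edgeR, adjusted p = 0.550). Its estimate was -1.58 without C572S, -1.60 without SW22 and C572S, -2.30 without C572 and -3.08 without C5713. Pfkfb4, which sets the level of an activator of phosphofructokinase, had -0.88 ± 0.31 in C57 mice and -0.79 ± 0.22 over both strains (edgeR, adjusted p = 0.550 and 0.330). Without SW22 and C572S these were -1.03 and -0.92, and the first was -0.76 without C572. DESeq2 without SW22 and C572S, a setting chosen after seeing the data, gave Pfkfb4 an adjusted p of 0.0434 over both strains. Pfkfb4 had 340, 315 and 457 normalized counts in C57-En1+/- mice, against 671, 540 and 842 in C57 WT mice. In OF1 it overlapped, with 296, 374 and 311 in OF1-En1+/- mice, against 680, 323 and 591 in OF1 WT mice. Pdk1, another pyruvate dehydrogenase kinase, had 513 to 923 normalized counts in OF1 mice and 918 to 1528 in C57 mice, an estimate of -0.81 ± 0.19 over both genotypes that edgeR left just above the threshold (adjusted p = 0.0517) and DESeq2 passed (0.00406). By edgeR the adjusted p of Pdk1 was 0.0439 without C572 and 0.0997 without SW22 and C572S. Between En1+/- mice Eno3 had 2.08 (edgeR, adjusted p = 0.416), and the difference of genotype effects was 3.16 for Eno3 and -0.71 for Sdhaf4 (both not past the threshold). The Eno3 estimate between En1+/- mice was 1.18 without SW22, 1.19 without SW22 and C572S and 1.86 without C572. Its difference of genotype effects was 2.27 without SW22, 2.22 without C572S, 1.36 without both and 2.93 without C572, and that of Sdhaf4 was -0.57 without SW22 and C572S. Sdhaf4, an assembly factor of complex II, was higher in OF1 WT mice (2227, 2896 and 2375) than in C57 WT mice (1437, 1362 and 1560.0), by 0.78 ± 0.19 (edgeR, adjusted p = 0.114; DESeq2, 0.00540).

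The gene that edgeR called among the 57 was Eno1, the ubiquitous enolase, which was lower in OF1-En1+/- than in C57-En1+/- mice with a log2 fold change of -1.37 ± 0.21 (edgeR, adjusted p = 0.00670) and, without SW22 and C572S, of -1.30 with an adjusted p of 0.0796, and without C572 of -1.27 with an adjusted p of 0.0248. It was also lower in OF1 than in C57 mice over both genotypes, at -1.17 ± 0.15 (adjusted p = 0.000742). Between WT mice the estimate was -0.97 (edgeR, adjusted p = 0.0562; DESeq2, 0.00187). It had 20253 to 31733 normalized counts in OF1 and 41652 to 68150.0 in C57 mice. Its near-identical copy Eno1b, which is 99.4% identical over 1385 aligned bases, had 16783 to 26075 in OF1 mice and 120 to 237 in C57 mice, and took 43.2% to 46.6% of the summed reads in OF1 mice. With the reads of both genes added, a setting chosen after seeing the data, the estimate was -0.50 between En1+/- mice (edgeR, adjusted p = 0.566) and -0.32 over both genotypes (adjusted p = 0.608). The sum averaged 43512 ± 7611 in OF1 and 54331 ± 9719 in C57 mice (SD, n = 6 each). The calls for Eno1 were lost once both genes were counted together, and why the reads divided differently was not tested.

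Gapdh has the same difficulty on a larger scale. Of 227 annotated copies whose best match among coding transcripts was 1 of the 40 genes, 157 were copies of Gapdh, 25 of Ldha and 12 of Pkm. Copies took up to 44.8% of the summed reads of Gapdh in each library, at most 3.19% for Pgam1 and at most 12.5% for Suclg2, and under 1% for the other 13 genes with copies. The division among the Gapdh copies differed between mice. Gm13394 had 34182, 30833 and 31092.5 normalized counts in SW21 and SW22 (both OF1-En1+/-) and SW7 (OF1 WT), and 66.4 to 171 in the other 9 mice, 3 of which were OF1. Gm12671 was at 0 in these 3 mice and in C5713 and C572S, and had 3189 to 15241 in the other 7. Gm7336 had 13311 to 32875 in all 12. The sequences around the single base at which Gm13394 departs from the coding sequence of Gapdh are shown because a read can be told apart there and nowhere else in the 999 coding bases. The base is written A346C (A in Gapdh, C in Gm13394, counted from the A of the start codon), and it stands in capitals.
Gapdh: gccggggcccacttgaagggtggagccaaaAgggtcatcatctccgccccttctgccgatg
Gm13394: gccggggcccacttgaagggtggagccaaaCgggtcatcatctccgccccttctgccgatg
Gm12671: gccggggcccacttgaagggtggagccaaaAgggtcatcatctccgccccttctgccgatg
All 3 lie on the minus strand of GRCm39, Gapdh at chr6:125139949-125140107 (over an exon junction), Gm13394 at chr2:28824246-28824306 and Gm12671 at chr4:91740531-91740591. Gm12671 has no difference from Gapdh over the 999 bases, so reads from inside the coding sequence cannot be assigned between them. The sum of Gapdh and its copies averaged 116119 ± 7949 in OF1-En1+/- and 115935 ± 11502 in OF1 WT mice, and 129748 ± 29133 in C57-En1+/- and 94892 ± 17982 in C57 WT mice (SD, n = 3 each). The log2 fold change of that sum was 0.01 ± 0.20 between genotypes in OF1 and 0.46 ± 0.20 in C57 (edgeR, adjusted p = 0.994 and 0.566). Gapdh is widely used as a reference gene, and its own count differed between mice of the same group by up to 1.67-fold here.

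**Figure D5:**
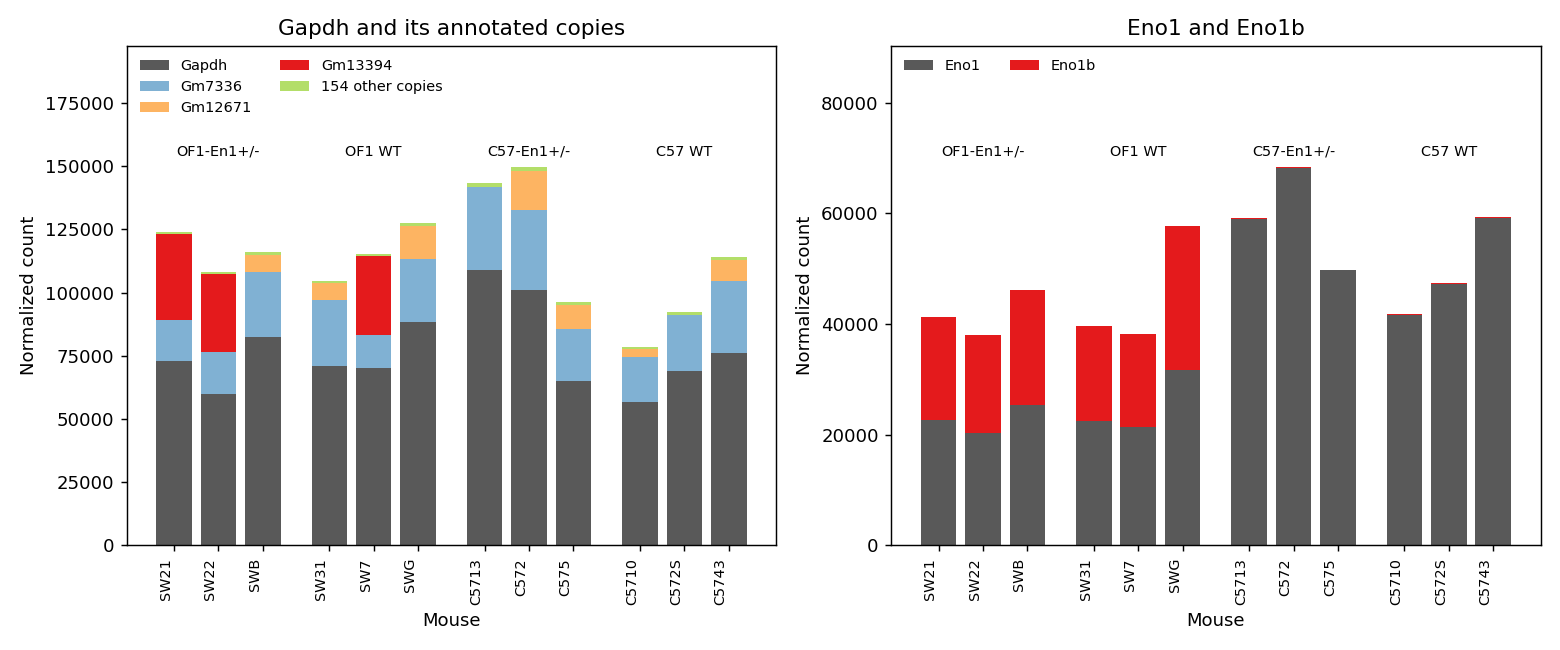
Normalized counts per mouse, stacked, for Gapdh with its annotated copies (left) and for Eno1 with Eno1b (right), with mice in group order; the vertical axes start at 0. Gm13394 is present at 30833 to 34182 counts in 3 of 6 OF1 mice and nearly absent from the rest, and Eno1b is present in all 6 OF1 mice and nearly absent from C57 mice.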

How the data were processed

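Libraries were made from laser-microdissected nigral sections of 12 mice with SMART-Seq v4 and Nextera XT and sequenced as unstranded read pairs. Per the study's methods, the authors estimated transcript abundance with Salmon by quasi-mapping, with correction for GC bias, against GENCODE M28. The deposited values used here are estimated counts per transcript and TPM values per transcript as Salmon wrote them for each mouse, before any normalization between mice.

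Transcripts were assigned to genes with GENCODE M39 on GRCm39, which covered 139555 of 140790 (99.1%), and transcripts without a match held 0.604% to 0.734% of reads. Estimated counts were summed per gene, rounded and scaled by TMM factors (normalized counts). Genes with a mean of at least 10 normalized counts were tested with the quasi-likelihood test of edgeR 4.0.16 (R 4.3.3) in 1 fit to all 12 libraries, with Benjamini-Hochberg adjustment over all genes tested and a threshold of 0.05. A fold change is given on the log2 scale with its SE and, where stated, its 95% interval. DESeq2 1.42.0, limma 3.58.1 (voom) and other settings were run as alternatives. The fit was also run on simulated counts with known changes. These had a single spread for all genes, so they do not measure the accuracy of the fit on these libraries. Annotated copies were aligned with minimap2 2.31-r1302.

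Values are given in full for genes past the threshold and for those of smallest p in each comparison (3 of the 40 genes, 2 of the further genes), and other genes were singled out after their values were seen. The members and lists were chosen with earlier results of these data known. Groups come from the labels. Estimated reads are not independent molecules, since they carry no molecular identifiers. Sequences come from GRCm39 and its GENCODE transcripts.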

Additional observations from a re-analysis of the deposited data

How the results depend on the processing

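The count of the 40 genes called was 0 under every setting run but 2. It was 1 (Pdk3) by DESeq2 for OF1 WT against C57 WT mice, and 1 (Pdk3) by DESeq2 without SW22 and C572S for OF1-En1+/- against OF1 WT mice. No median over the 40 genes moved by more than 0.21 log2 units, the SD between libraries. That bound is larger than most of the medians themselves, so a median could vanish within it and staying inside is no sign of stability. Leaving out a mouse at a time gave medians of -0.11 to 0.11 for genotype in OF1, 0.10 to 0.38 in C57 and 0.07 to 0.21 over both strains. It gave 0.04 to 0.30 between WT mice, -0.13 to 0.12 between En1+/- mice, -0.01 to 0.16 over both genotypes and -0.34 to -0.03 for the difference of genotype effects. Of 790 values for 35 single-gene results under other settings, 773 kept direction and side of the threshold, 14 passed it where the main value did not, 3 (all Eno1) no longer passed and 0 reversed. These settings refit the same libraries, and only Eno1 passed in the main fit, so keeping side is no independent check. Without SW22 and C572S, a setting chosen after seeing the data like the adding of Eno1b and Ldhb-ps reads, edgeR called 0 of the 40 in each comparison. Fitting only the groups compared gave no value for contrasts over all 4 groups. No paired analysis was possible because the labels give no replicate numbers shared between groups. With 3 mice a group, Mdh1 and Hk2 had the largest spread of the 40 within groups, C57 WT mice were sequenced deepest, and the counts of Gapdh and Eno1 depend on how reads were divided among copies.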
